A study of Mus musculus with 8 samples.

Results

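The GABA-A receptor subunit genes followed here are Gabra2, Gabra3, Gabra4, Gabra5, Gabrb1, Gabrb2 and Gabrd, 7 of the 19938 genes that had a probe set of their own on the array. A gene was taken where the platform annotation gave a probe set its symbol and no other, and the probe set with the highest mean stood for the gene. All 7 genes passed the brightness filter, a mean log2 level over the arrays of at least 5.63. Of the other subunit genes, 9 had a named probe set and 5 of these passed that filter. The probe sets were 10530406 (Gabra2), 10604961 (Gabra3), 10530421 (Gabra4), 10563872 (Gabra5), 10522324 (Gabrb1), 10375245 (Gabrb2) and 10519124 (Gabrd).

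RNA came from bilateral thalamic tissue of male C57BL/6 mice, an inbred laboratory strain, that were 6 weeks old before treatment, and was measured on Affymetrix whole-transcript arrays. The 4 groups had 2 arrays each, 1 per mouse as the sample titles number them. Control mice were injected with saline daily for 4 weeks. The MPTP group received 20 mg/kg of MPTP, a toxin of dopaminergic neurons that serves as a model of parkinsonism, every 24 hr over the same time. The acupoint and non-acupoint groups received the same MPTP and were needled by hand in 14 sessions 48 hr apart, the first 2 hr after the first MPTP injection. Needles entered both sides, at LR3 (1 mm deep) and GB34 (3 mm) in the acupoint group and at the hips (3 mm) in the non-acupoint group. No group was needled without MPTP, so MPTP is shared by every needled mouse.

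Array medians lay between 6.18 and 6.29 on the log2 scale. Across probe sets, 2 arrays stood apart, mouse 1 of the MPTP group and mouse 1 of the non-acupoint group. Their correlation was 0.982 with each other but only 0.905 to 0.936 with the remaining 6, which reached 0.981 to 0.995 among themselves. Values without these 2 arrays are therefore given as well. With the 6 arrays, the MPTP and non-acupoint groups hold 1 mouse each, whose spread is taken to be that of the other groups. Precision is limited by how few arrays there are, and p-values measure only the spread between these mice.

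GABA-A receptors are chloride channels built as rings of subunits, and they carry most fast inhibition in the brain. Alpha and beta subunits form the GABA binding sites, a gamma subunit places many receptors at synapses, and the delta subunit takes the place of gamma in receptors outside the synapse, which carry a steady tonic current. In thalamic relay neurons, alpha4, beta2 and delta are known to form such extrasynaptic receptors. Alpha3 is known from the thalamic reticular nucleus, alpha5 is best known from the hippocampus, and alpha2 from forebrain synapses and axon initial segments.

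The genes of the extrasynaptic relay-neuron receptor, Gabra4, Gabrd and Gabrb2, were highest in the mice needled at GB34 and LR3. In acupoint mice against controls Gabra4 was 2.07-fold, Gabrd 2.20-fold and Gabrb2 1.30-fold higher, and Gabra5 was 1.57-fold lower. With all 8 arrays weighted equally, as in the main fit, none of the 7 genes passed an adjusted p of 0.05 in any of the 6 comparisons. Over the 6 arrays, Gabra4, Gabrd and Gabrb2 rose and Gabra5 fell between controls and acupoint mice. That is 4 of 7 genes, where 8.64% of all 15791 probe sets tested passed. Neither of the arrays that stood apart belongs to the groups of that comparison, so the changes themselves are equal in both fits and only the spread differs.

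**Figure D1:**
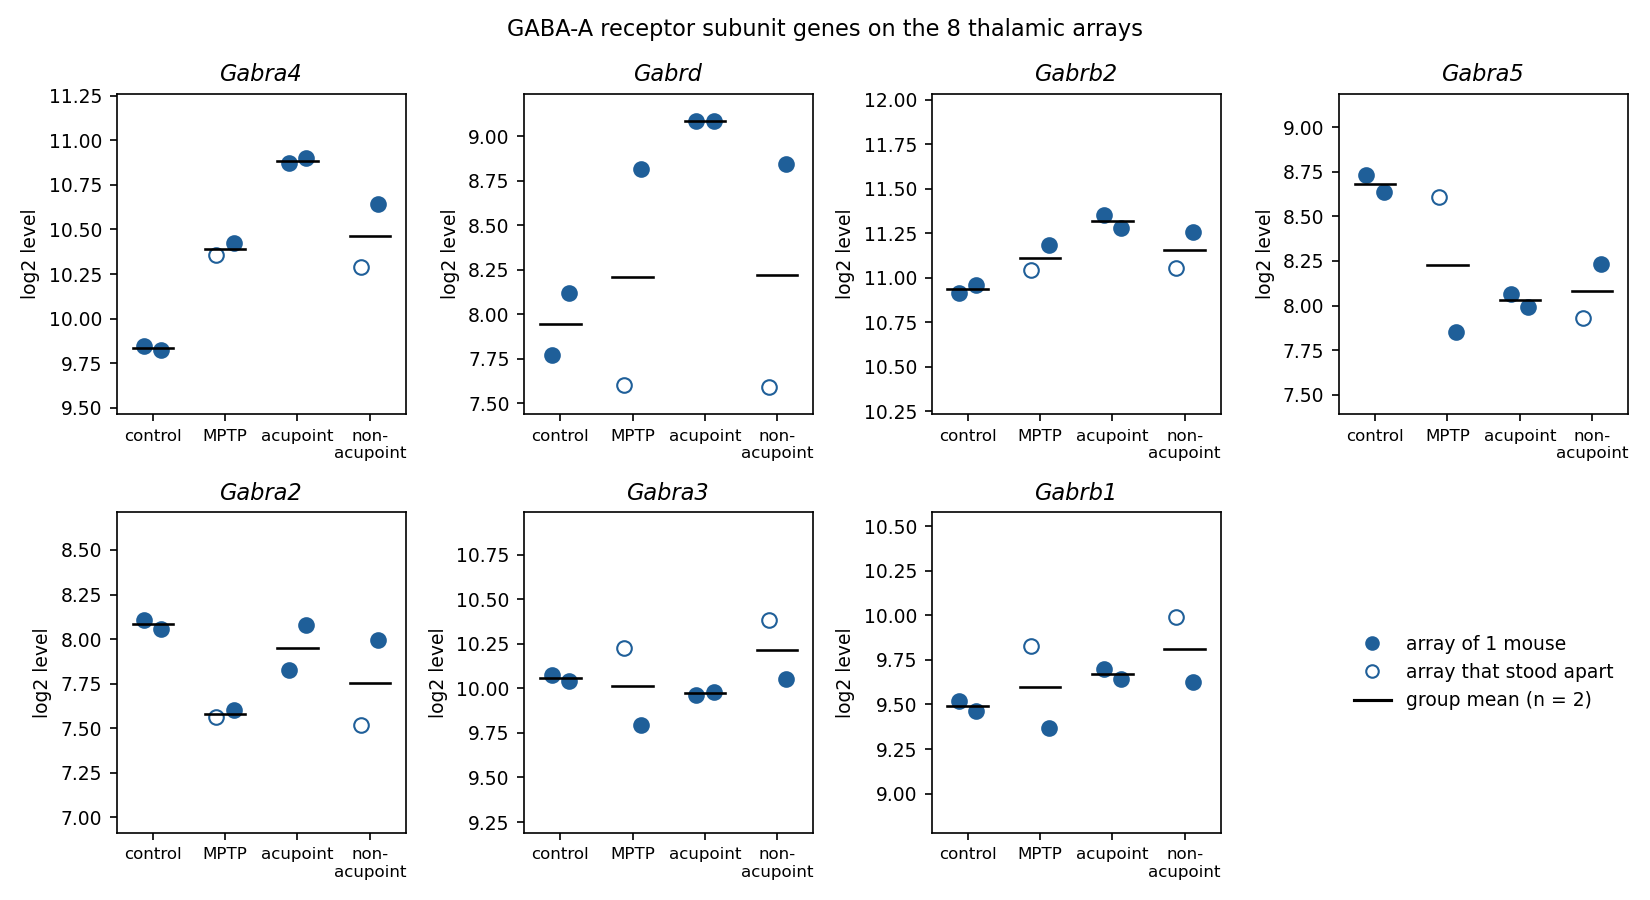
Log2 level of each subunit gene on each array, by group. Points are arrays of single mice, open where the array stood apart, and lines are means of 2 mice, with every panel spanning the same number of log2 units. Gabra4 lay between 9.83 and 9.84 in controls and between 10.87 and 10.90 in acupoint mice, and the 2 open points of Gabrd, at 7.60 and 7.59, lay under both controls.

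Gabra4 encodes the alpha4 subunit. Its log2 level was 9.84 and 9.83 in control mice 1 and 2, 10.36 and 10.42 in MPTP mice, 10.87 and 10.90 in acupoint mice, and 10.29 and 10.64 in non-acupoint mice. Both controls were the lowest of the 8 arrays and both acupoint mice the highest, and no injected group overlapped the controls. The group means ran from 10.89 ± 0.02 in acupoint mice through 10.47 ± 0.25 in non-acupoint and 10.39 ± 0.04 in MPTP mice to 9.83 ± 0.01 in controls (SD, n = 2). The difference from control was 1.05 ± 0.15 (SE) for acupoint mice by limma over all 8 arrays (unadjusted p = 0.000316, Benjamini-Hochberg adjusted p = 0.187). For non-acupoint mice the difference from control was 0.63 (unadjusted p = 0.00504), and for MPTP mice 0.56 (unadjusted p = 0.00924), with limma adjusted p of 0.705 and 0.714. Non-acupoint and MPTP mice, neighbours in this order, differed by 0.08 ± 0.15 (SE), within their spread.

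Without the 2 arrays Gabra4 rose in acupoint mice (limma adjusted p = 0.00344) and in the remaining non-acupoint mouse (0.81 above control, adjusted p = 0.0398), and was 0.59 above control in the remaining MPTP mouse (adjusted p = 0.0656). Over 20 alternative settings the adjusted p of the acupoint difference ran from 0.000225 to 1.00, and the difference itself from 0.998 to 1.07, although many of these settings cannot move it. It passed under 4 of the settings, and under none of those that left out 1 mouse.

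Gabrd encodes the delta subunit, the one that marks extrasynaptic receptors. It stood at 7.77 and 8.12 in controls, 7.60 and 8.81 in MPTP mice, 9.09 and 9.09 in acupoint mice, and 7.59 and 8.84 in non-acupoint mice. The 2 low values outside the controls are the 2 arrays that stood apart, and both were below either control, so MPTP and non-acupoint mice overlapped the controls. Acupoint mice were above all other arrays. Their mean was 1.14 ± 0.51 (SE) above control over all 8 arrays, which limma did not call (unadjusted p = 0.0614, adjusted p = 0.925). Over the 6 arrays the same difference had an SE of 0.12 and passed (adjusted p = 0.00698, from 0.0047 to 1.00 over the alternatives). In the 6 arrays MPTP mouse 2 was 0.87 and non-acupoint mouse 2 was 0.90 above control (adjusted p = 0.0877 and 0.0712), against 0.26 and 0.27 with all 8. Taken alone, mouse 1 of the MPTP group was -0.34 and mouse 1 of the non-acupoint group -0.35 from control.

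Gabrb2 encodes the beta2 subunit and had 3 probe sets. On the brightest, 10375245, the level was 10.91 and 10.96 in controls, 11.04 and 11.18 in MPTP mice, 11.35 and 11.28 in acupoint mice, and 11.06 and 11.25 in non-acupoint mice. On this probe set all 6 injected mice lay above both controls, with the acupoint mice on top, as for Gabra4. The acupoint difference was 0.38 ± 0.14 (SE) by limma over all 8 arrays (unadjusted p = 0.0295, adjusted p = 0.759) and passed over the 6 arrays (adjusted p = 0.0335, from 0.0127 to 1.00 over the alternatives). It was called in 3 of the 20 alternatives.

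The 3 probe sets of Gabrb2 did not behave alike on the arrays that stood apart. Probe set 10375259 read 10.31 in non-acupoint mouse 1, below both controls (10.49 and 10.51). Probe set 10375261 read 8.24 in MPTP mouse 1 and 8.09 in non-acupoint mouse 1, against 10.19 to 10.68 on the other 6 arrays. Its MPTP difference from control was therefore -0.83 ± 0.92 (SE) over all 8 arrays, opposite to the 0.17 and 0.22 of the other probe sets. Without those 2 arrays the 3 probe sets read 0.24, 0.32 and 0.30. In acupoint mice they read 0.38, 0.56 and 0.41 above control.

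The bases before the start of Gabra4 and Gabrb2 are shown because both genes stood highest in acupoint mice, and those of Gabra2 because it lies in the gene cluster of Gabra4 but did not follow it. RefSeq windows on build GRCm38.p6 were listed for 6 of the 7 genes, and Gabrd was not among them. Each run gives the 250 bases before the most upstream listed start, 5′ to 3′ on the strand of the gene. The windows lie at chr5:71658309-71658558 (minus strand, Gabra4), chr11:42420190-42420439 (plus strand, Gabrb2) and chr5:71095850-71096099 (minus strand, Gabra2). Capitals mark matches, on either strand, to the GC box GGGCGG, the cyclic AMP response element TGACGTCA, the EGR motif GCGNGGGCG, the E-box CACGTG and the TATA box TATAAA. The EGR motif and the GC box can share bases.
Gabra4: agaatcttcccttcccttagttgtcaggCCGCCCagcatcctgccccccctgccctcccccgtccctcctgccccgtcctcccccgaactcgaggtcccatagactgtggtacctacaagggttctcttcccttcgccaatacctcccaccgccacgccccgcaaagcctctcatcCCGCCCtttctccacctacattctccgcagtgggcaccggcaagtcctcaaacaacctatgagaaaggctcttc
Gabrb2: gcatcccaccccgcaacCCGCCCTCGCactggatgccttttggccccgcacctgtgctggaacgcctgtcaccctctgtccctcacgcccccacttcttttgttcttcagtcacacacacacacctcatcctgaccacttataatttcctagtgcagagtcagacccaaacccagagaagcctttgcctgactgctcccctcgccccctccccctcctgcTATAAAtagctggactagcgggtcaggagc
Gabra2: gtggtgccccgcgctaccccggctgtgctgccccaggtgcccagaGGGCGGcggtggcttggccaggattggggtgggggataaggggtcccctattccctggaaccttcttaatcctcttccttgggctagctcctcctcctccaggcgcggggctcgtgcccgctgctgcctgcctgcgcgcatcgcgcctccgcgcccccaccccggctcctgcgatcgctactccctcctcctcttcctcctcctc

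The Gabra4 window held 2 matches to the GC box, the Gabra2 window 1 and the Gabrb2 window 1, a motif found in 32.7% of all 32851 windows of this length. The Gabrb2 window also held 1 EGR match, which overlaps its GC box, and 1 TATA box, found in 4.70% and 12.4% of windows. The cyclic AMP response element (1.55% of windows) and the E-box (6.02%) were matched in none of the 3. The share of G and C was 61.2% for Gabra4, 58.8% for Gabrb2 and 70.0% for Gabra2, against a median of 52.4%. Such matches describe letters only, and binding was not measured.

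Gabra5, the alpha5 subunit gene, was lower in injected mice. It stood at 8.73 and 8.64 in controls, 8.61 and 7.85 in MPTP mice, 8.07 and 7.99 in acupoint mice, and 7.93 and 8.23 in non-acupoint mice. No injected mouse reached the controls, and MPTP mouse 1 came just under the lower control while the other 5 were further below. Means were 8.68 ± 0.07 in controls, 8.23 ± 0.54 in MPTP, 8.03 ± 0.05 in acupoint and 8.08 ± 0.22 in non-acupoint mice (SD, n = 2). The acupoint difference of -0.65 ± 0.26 (SE, limma over all 8 arrays, unadjusted p = 0.0402, adjusted p = 0.838) was called over the 6 arrays (adjusted p = 0.00903, from 0.00331 to 1.00 over the alternatives).

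In MPTP mice the value of Gabra5 depended on which mouse was used. It was -0.46 ± 0.26 (SE) with both mice, -0.83 in MPTP mouse 2 alone over the 6 arrays (limma adjusted p = 0.0421, from 0.0421 to 0.973 over the alternatives), and -0.08 in MPTP mouse 1 alone. The non-acupoint difference was -0.60 over all 8 arrays and -0.45 over the 6 (adjusted p = 0.0884). Among the injected groups the order in Gabra5 turned with the arrays used. Acupoint mice were -0.20 from MPTP mice over 8 arrays and 0.18 above MPTP mouse 2 over 6, and non-acupoint mice -0.15 over 8 and 0.38 ± 0.11 (SE) over 6 (limma unadjusted p = 0.0118, adjusted p = 0.251).

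Gabra2, the alpha2 subunit gene, was lowest on average in MPTP mice. Its level was 8.11 and 8.06 in controls, 7.56 and 7.60 in MPTP mice, 7.82 and 8.08 in acupoint mice, and 7.52 and 7.99 in non-acupoint mice. MPTP mice were below both controls and below both acupoint mice, and acupoint mice overlapped the controls. The MPTP difference from control was -0.50 ± 0.19 (SE, limma, unadjusted p = 0.0358, adjusted p = 0.714), and acupoint mice were 0.37 ± 0.19 above MPTP mice (unadjusted p = 0.0960, adjusted p = 0.889). Neither passed over the 6 arrays, where the MPTP difference was -0.48 (adjusted p = 0.163). In non-acupoint mice the difference from control was -0.33 over all 8 arrays and -0.09 over the 6.

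Gabra3, the alpha3 subunit gene, and Gabrb1, the beta1 subunit gene, had no difference that limma called in any comparison, over 8 or 6 arrays. Gabra3 stood at 10.07 and 10.04 in controls, 10.23 and 9.80 in MPTP mice, 9.96 and 9.98 in acupoint mice, and 10.38 and 10.05 in non-acupoint mice. Gabrb1 stood at 9.52 and 9.46, 9.83 and 9.37, 9.70 and 9.64, and 9.99 and 9.63 in the same order. In both genes the 2 arrays that stood apart were the highest of the 8. The largest change of Gabrb1 from control was 0.32 ± 0.20 (SE) in non-acupoint mice over all 8 arrays, and 0.14 over the 6. Gabra3 was 0.16 above control in non-acupoint mice over 8 arrays and -0.01 from it over 6. In MPTP mice Gabrb1 was 0.11 above control over 8 arrays and -0.12 from it over 6.

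**Figure D2:**
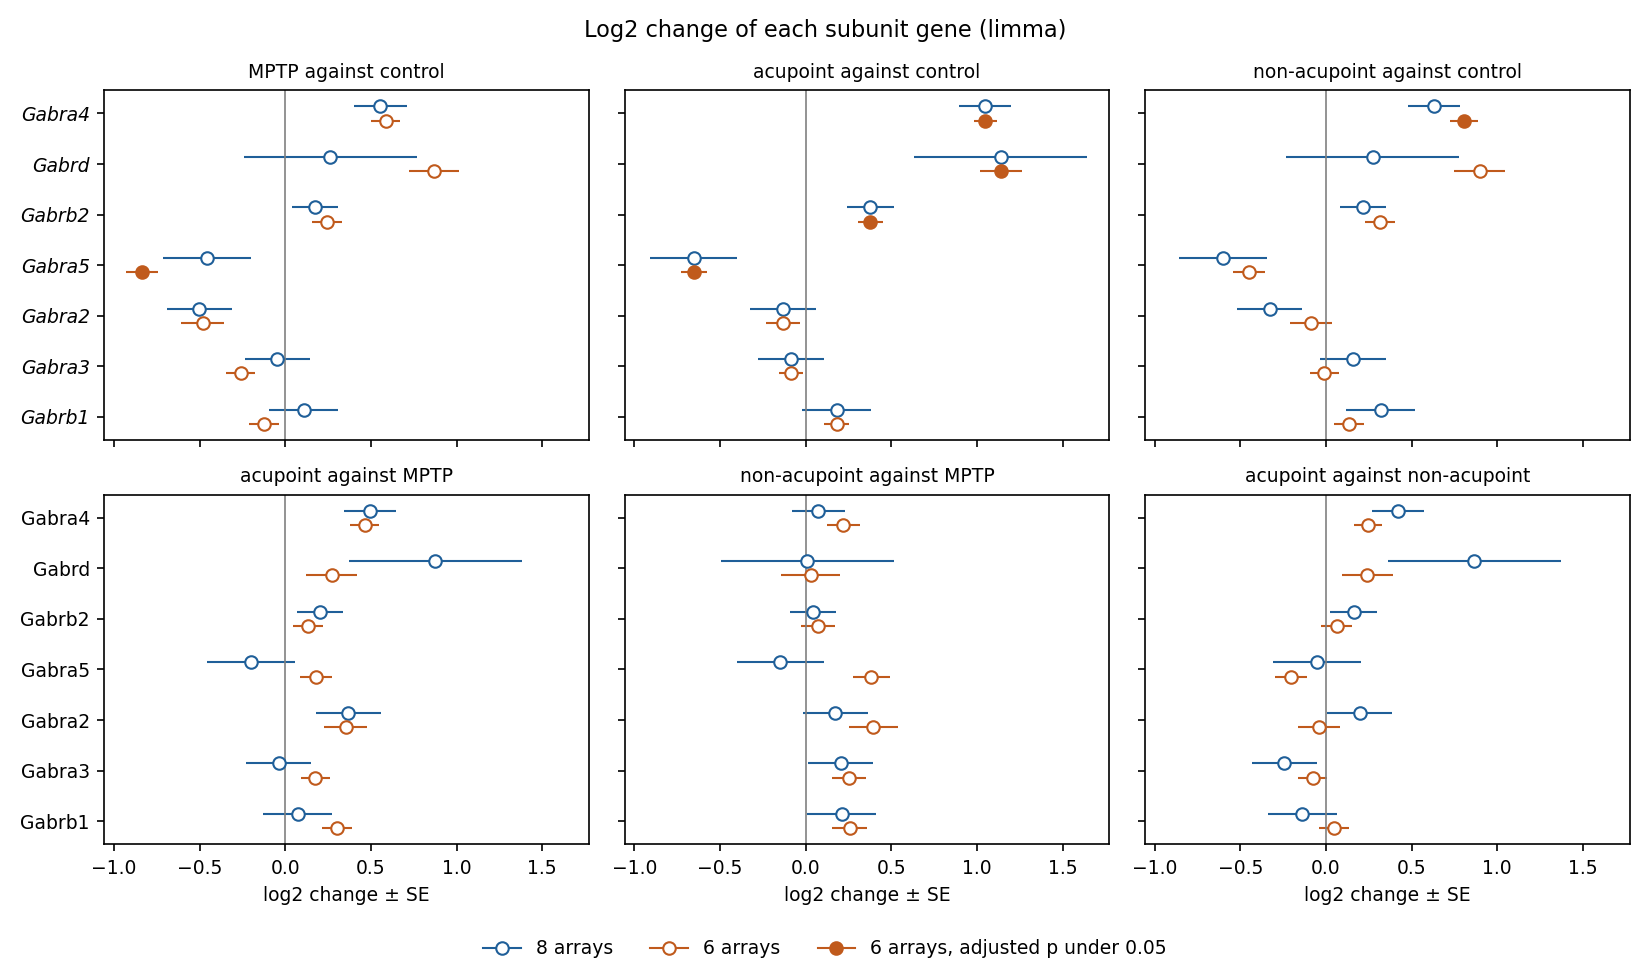
Log2 change ± SE of each subunit gene in the 6 comparisons, from limma over all 8 arrays (blue) and over the 6 arrays left without the 2 that stood apart (orange), with filled points past an adjusted p of 0.05. Filled points appear for Gabra4, Gabrd, Gabrb2 and Gabra5 in acupoint against control, Gabra5 in MPTP against control and Gabra4 in non-acupoint against control, and no blue point is filled.

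Read against all probe sets tested, the 7 genes were called as follows over the 8 arrays. In MPTP against control, 2 of 7 had an unadjusted p under 0.05 (Gabra2 and Gabra4), where 5.29% of probe sets did, and 4 of 7 did not overlap between groups, where 38.5% did not. In acupoint against control these counts were 3 (Gabra4, Gabra5 and Gabrb2; 5.62% of probe sets) and 6 of 7 (59.6%). In non-acupoint against control they were 1 (Gabra4; 4.88%) and 5 of 7 (47.7%). The 3 comparisons share the control mice. At an adjusted p of 0.05, 0% of probe sets passed in each of them over 8 arrays. Over the 6 arrays 0.361% passed in MPTP against control, 8.64% in acupoint against control and 0.329% in non-acupoint against control, with 1, 4 and 1 of the 7 genes. More probe sets also had an unadjusted p under 0.05 over the 6 arrays. In MPTP against control 6 of 7 genes did (15.8% of probe sets), in acupoint against control 5 (27.9%) and in non-acupoint against control 4 (21.1%).

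The comparisons among injected mice asked what needling changed on top of MPTP. In acupoint against MPTP mice, 1 of 7 genes had an unadjusted p under 0.05, Gabra4 (0.50 ± 0.15, SE; limma unadjusted p = 0.0155, adjusted p = 0.889), where 1.37% of probe sets did. Gabra2, Gabra4, Gabrb2 and Gabrd were higher in both acupoint mice than in both MPTP mice, 4 of 7 where 27.1% of probe sets did not overlap. Gabrd differed by 0.88 ± 0.51 (SE), a difference that was 0.27 over the 6 arrays. Gabra4 differed by 0.46 over the 6 arrays, where 3 of 7 genes had an unadjusted p under 0.05 (15.4% of probe sets). Gabra3 turned from -0.04 over 8 arrays to 0.18 over 6.

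In non-acupoint against MPTP mice the groups overlapped in all 7 genes, where 12.4% of probe sets did not overlap, and 0 of 7 had an unadjusted p under 0.05 (1.56% of probe sets). Changes ran from -0.15 for Gabra5 to 0.21 for Gabrb1. The picture differed over the 6 arrays, where 1 mouse stands against 1. All 7 genes were then higher in the non-acupoint mouse, by 0.03 for Gabrd to 0.39 for Gabra2, and Gabra2, Gabra3, Gabra5 and Gabrb1 had an unadjusted p under 0.05. That is 4 of 7, where 15.3% of probe sets did, and none passed an adjusted p. Over all 8 arrays, this is the comparison in which 0.0443% of probe sets passed an adjusted p of 0.05, and none of them belonged to these genes. In acupoint against non-acupoint mice, 1 of 7 had an unadjusted p under 0.05, Gabra4 (0.42 ± 0.15, SE; limma unadjusted p = 0.0302, adjusted p = 0.893; 1.89% of probe sets). There 4 of 7 did not overlap (31.8% of probe sets), Gabra4, Gabrb2 and Gabrd higher and Gabra3 lower after needling at the acupoints. The Gabra4 difference was 0.25 over the 6 arrays and that of Gabrd 0.24, against 0.87 over 8. Gabra2 turned from 0.20 to -0.04 and Gabrb1 from -0.14 to 0.04 without the 2 arrays, and 1 of 7 genes, Gabra4, had an unadjusted p under 0.05 there (8.95% of probe sets). At an adjusted p of 0.05, 0% of probe sets passed over all 8 arrays in acupoint against MPTP and in acupoint against non-acupoint.

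The median change over the 7 genes was 0.11 in MPTP, 0.18 in acupoint and 0.22 in non-acupoint mice against control over all 8 arrays, and -0.12, 0.18 and 0.14 over the 6, so its sign in MPTP mice was not settled. It was 0.20 in acupoint and 0.08 in non-acupoint against MPTP, and 0.16 in acupoint against non-acupoint mice, against 0.27, 0.25 and 0.04 over the 6 arrays. With all 8, the medians over all probe sets tested lay between -0.019 and 0.013. The median hides the opposite directions within the family.

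Across the 8 arrays Gabra4 and Gabrb2 ran together (Pearson r = 0.956, and 0.981 over the 6 arrays). Gabra4 and Gabrd correlated at 0.741 over 8 and 0.962 over 6, and Gabrb2 and Gabrd at 0.873 and 0.978. Gabra5 ran opposite to all 3, at -0.686 with Gabra4, -0.707 with Gabrb2 and -0.557 with Gabrd. Gabra3 and Gabrb1 correlated at 0.855 over 8 arrays and 0.438 over 6. These values describe points that share the group structure and 2 arrays that stood apart.

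The genes whose pattern over the 8 arrays was most like each member were taken from 13523 other genes, so the best of many fits is shown. For Gabra4 these were Sprn (r = 0.994), Adgrl1 (0.988) and Sel1l3 (0.988), and for Gabrb2 the thalamic transcription factor gene Shox2 (0.992), the calcium channel subunit gene Cacna2d4 (0.990) and Wnt3 (0.985). For Gabrd they were the histamine H3 receptor gene Hrh3 (0.992), Pdp1 (0.988) and Rnf112 (0.987). For Gabra5 they were the neuronal pentraxin gene Nptx1 (0.955), Slitrk4 (0.937) and Rerg (0.933). Gabra2 was nearest to Rapgef5 (0.971), Luc7l (0.968) and Slc5a3 (0.968), and Gabra3 to Afap1l2 (0.992), Fam78b (0.986) and Ago1 (0.984). Gabrb1 was nearest to the sodium leak channel gene Nalcn (0.996), Myrip (0.987) and Uggt2 (0.983). Over the 6 arrays these 21 correlations lay between 0.918 and 0.997.

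Some markers of cell types and neighbouring regions moved with some of these genes. The mean of 16 thalamic relay neuron genes, relative to its mean over all arrays, was -0.54 and -0.43 in controls, 0.11 and 0.01 in MPTP mice, 0.31 and 0.31 in acupoint mice, and 0.19 and 0.05 in non-acupoint mice. That is the order of arrays seen for Gabra4 at both ends, controls lowest and acupoint mice highest. In acupoint against control all 16 of these genes were higher, 14 with an unadjusted p under 0.05, with a median of 0.81 beside 1.05 for Gabra4, 1.14 for Gabrd and 0.38 for Gabrb2. In MPTP and in non-acupoint mice against control their medians were 0.54 and 0.60, beside 0.56 and 0.63 for Gabra4.

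The mean of 14 hypothalamic genes was 0.60 in both controls, -0.64 and 0.21 in MPTP mice, -0.73 and -0.16 in acupoint mice, and -0.11 and 0.24 in non-acupoint mice. All 14 were lower in acupoint mice than in controls, with a median of -1.01 beside -0.65 for Gabra5. Within the MPTP group the list and Gabra5 ran opposite ways, as Gabra5 stood at 8.61 in mouse 1 and 7.85 in mouse 2. Of 11 genes of midbrain dopaminergic neurons, 10 were lower in acupoint mice (median -0.73). Cortical and hippocampal genes had a median of -0.02 and pan-neuronal genes of 0.01 in acupoint against control. The cortical and hippocampal mean was 0.36 and -0.11 in MPTP mice 1 and 2, higher in mouse 1 as Gabra5 was. In controls, where Gabra5 was highest, that mean was -0.16 and -0.13. The 5 cerebellar genes tested were all higher in acupoint mice (median 0.38), and their mean ran in part with Gabrd, at -0.11 and -0.19 in controls, -0.21 and -0.10 in MPTP, 0.29 and 0.45 in acupoint and -0.31 and 0.18 in non-acupoint mice. The mean of 10 striatal genes differed between mice of a group, from 1.19 to -0.59 in MPTP and from -0.71 to 0.23 in acupoint mice. Cytosolic ribosome genes, 31 in all, were at -0.46 in MPTP mouse 1 and -0.35 in non-acupoint mouse 1 against 0.05 to 0.19 on the other 6 arrays, beside the low values of Gabrd there. Choroid plexus genes, 13 in all, moved differently from the subunit genes, at -0.60 and -0.51 in controls, 1.24 and 1.23 in MPTP, 0.68 and 1.19 in acupoint and -1.65 and -1.59 in non-acupoint mice. The part of these shifts in the subunit genes was not tested. In bulk tissue, more or fewer cells of a type and more or less RNA per cell cannot be told apart. The marker lists were drawn up with earlier results of these data known.

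**Figure D3:**
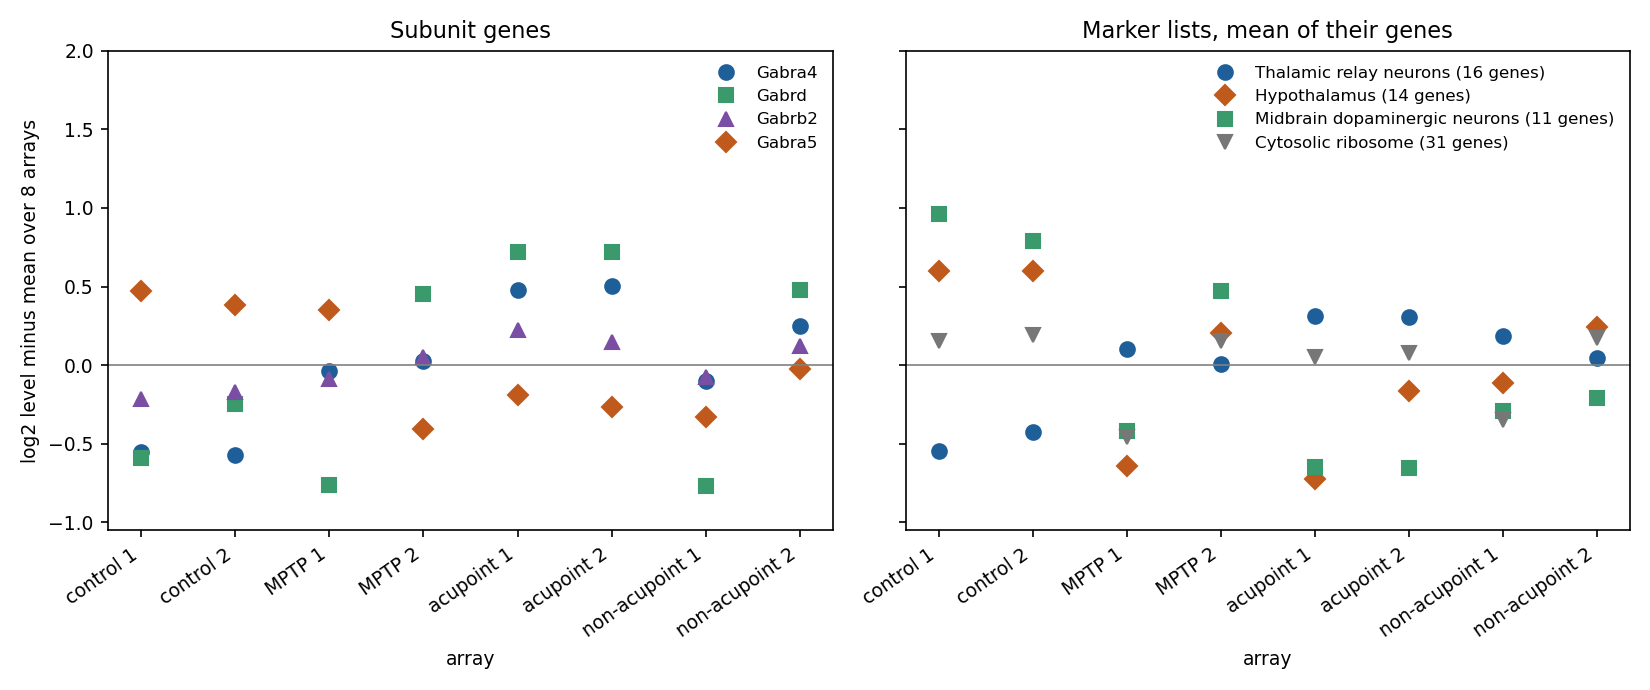
Log2 level on each array minus the mean over the 8 arrays, for 4 subunit genes (left) and as the mean over the genes of 4 marker lists (right). Gabra4, Gabrb2 and the relay neuron list were lowest in both controls and highest in both acupoint mice, the dopaminergic and hypothalamic lists were highest in both controls, and the ribosome list was lowest on the 2 arrays that stood apart.

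Among the other subunit genes, Gabrq and Gabre, which encode the theta and epsilon subunits, differed most from control in acupoint mice. Gabrq stood at 7.23 and 7.15 in controls, 6.56 and 6.42 in MPTP mice, 5.93 and 6.27 in acupoint mice, and 7.39 and 6.85 in non-acupoint mice. It was 1.09 ± 0.22 (SE) lower in acupoint mice than in controls over all 8 arrays (limma adjusted p = 0.239), a difference that passed over the 6 arrays (adjusted p = 0.00790). Gabre was 6.15 ± 0.07 in controls and 5.25 ± 0.01 in acupoint mice (SD, n = 2). It fell in acupoint mice over the 6 arrays (limma adjusted p = 0.00466), where its mean in acupoint mice is below the filter level of 5.63 and its change may be compressed. In MPTP mouse 2 Gabre was -0.74 from control over the 6 arrays, at a level of 5.41 that is also below the filter level.

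Of the gamma subunit genes, Gabrg3 read 9.07 and 9.26 on the 2 arrays that stood apart and 7.86 to 8.04 on the other 6. Gabrg1 read 7.06 and 6.95 on those 2 and 7.64 to 8.23 on the others. Neither was called in any comparison. Gabrr2, a rho subunit gene, had group means between 6.41 and 6.60. Gabra6, Gabrp, Gabrr1 and Gabrr3 did not pass the brightness filter, with means of 3.80 to 4.75. Over the 12 subunit genes tested, 3 rose (all members) and 3 fell (Gabra5, Gabre and Gabrq) in acupoint against control over the 6 arrays, where 8.64% of all probe sets passed.

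In the RefSeq gene order, Gabrg1, Gabra2, Gabra4 and Gabrb1 lie together on chromosome 5, with Cox7b2 between Gabra2 and Gabra4. Within this cluster Gabra4 was higher by 1.05, Gabrb1 by 0.18 and Gabra2 by -0.13 in acupoint mice against control, although Gabra4 and Gabrb1 are direct neighbours on opposite strands. Gabra5 and Gabrg3 are neighbours on chromosome 7, with changes of -0.65 and -0.08. Gabra3 and Gabrq are neighbours on chromosome X, with changes of -0.09 and -1.09.

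**Figure D4:**
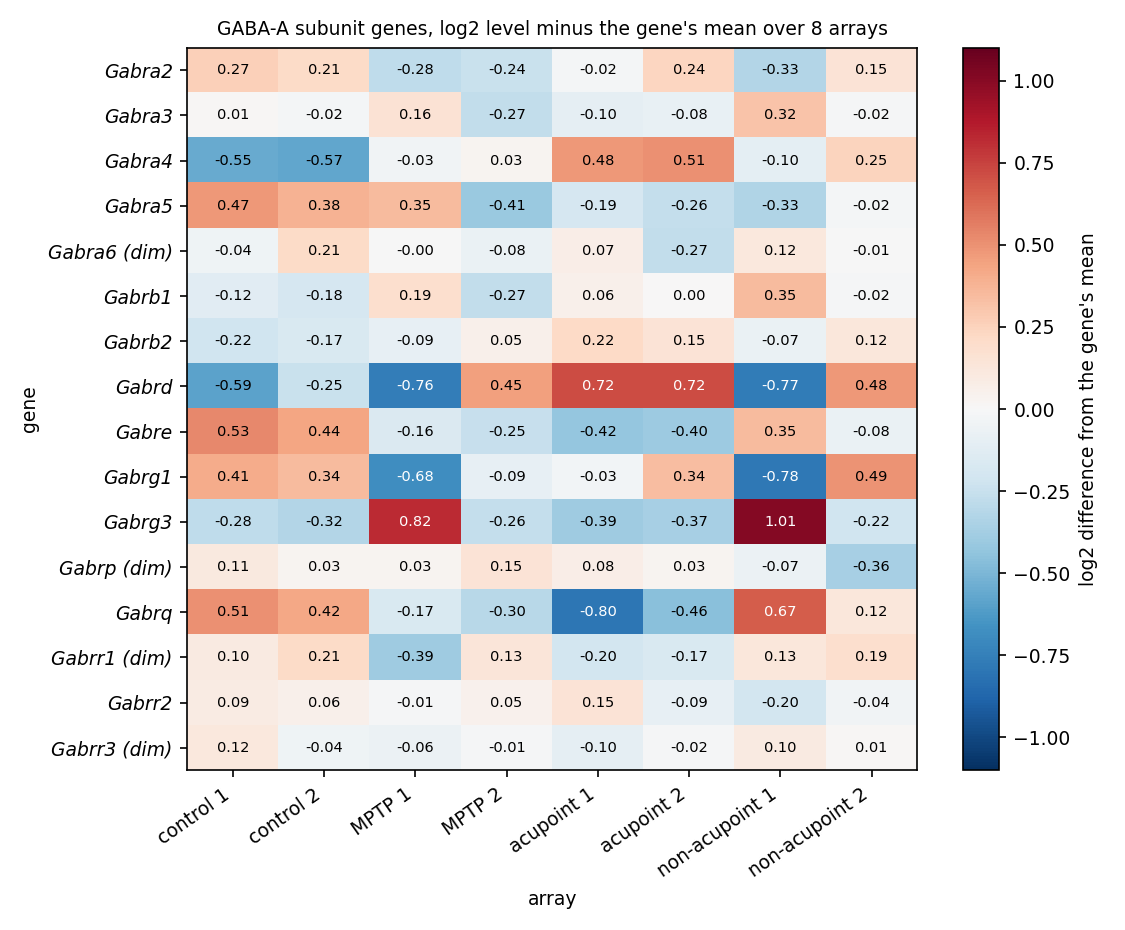
Log2 level of the 16 GABA-A subunit genes with a probe set of their own on each array, minus the mean of the gene over the 8 arrays, with dim marking genes under the brightness filter. Gabra4 and Gabrd are highest in both acupoint mice, Gabre and Gabrq are lower there than in both controls, and Gabrg3 stands out on the 2 arrays that stood apart.

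The rest of the GABA pathway was read in the same fits. Of 3 GABA transporter genes, the betaine and GABA transporter gene Slc6a12 and the transporter gene Slc6a13 were lower in every injected group. Slc6a12 stood at 6.84 and 6.89 in controls and at 5.61 to 5.97 on the other arrays, and was 1.09 ± 0.16 (SE) lower in non-acupoint mice (limma adjusted p = 0.444 over 8 arrays). Over the 6 arrays Slc6a12 fell in all 3 injected groups (adjusted p = 0.0413 for MPTP, 0.00417 for acupoint and 0.0398 for non-acupoint). Slc6a13, which is also a gene of the meninges, fell in MPTP and acupoint mice over the 6 arrays (adjusted p = 0.0413 and 0.0114). The mean of 8 meningeal fibroblast genes, of which Slc6a13 is 1, was 0.47 and 0.35 in controls and -0.46 to 0.09 on the other arrays. Slc6a11, a GABA transporter gene of astrocytes, was called in no comparison and was 0.42 ± 0.27 (SE) higher in acupoint than in MPTP mice over 8 arrays and 0.07 over 6.

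Among 6 GABA-B receptor genes, Gabbr2, a subunit of the G protein-coupled GABA receptor, rose in acupoint mice over the 6 arrays (0.68 ± 0.07, SE; limma adjusted p = 0.00652, and 0.325 over all 8). Its partner Gabbr1 was 0.28 higher, without a call. The auxiliary subunit gene Kctd8 was -0.52 from control in non-acupoint mice over 8 arrays and -0.33 over 6, without a call. Of 5 genes for making, loading and breaking down GABA, the vesicular transporter gene Slc32a1 fell in acupoint mice over the 6 arrays (-0.44, adjusted p = 0.0219), and Gad1, Abat, Gad2 and Aldh5a1 were not called. Gad2 was -0.31 in acupoint against MPTP over 8 arrays and -0.03 over 6, and Aldh5a1 0.28 and 0.10 in non-acupoint against control. Of 23 genes of the inhibitory synapse and receptor trafficking, 3 were called in acupoint against control over the 6 arrays. Slitrk3 rose (0.52) and Hap1 (-0.91) and Insyn2a (-0.92) fell, and the scaffold gene Gphn was not called. Of 4 glycine receptor genes, Glra1 (-0.50) and Glra3 (-0.85) fell in acupoint mice against control over the 6 arrays, and Glra2 (-0.36 over 8 arrays and -0.34 over 6 in acupoint against non-acupoint) was not called. None of 6 chloride transporter genes was called, among them Slc12a5 and Slc12a2, which set the chloride gradient. Slc12a4 was 0.34 above control in MPTP mice over 8 arrays and 0.19 over 6, Clcn3 0.35 and 0.22 above control in non-acupoint mice, and Slc12a7 -0.26 and -0.27 in non-acupoint against MPTP. Of the neurosteroid synthesis genes only Tspo passed the brightness filter, and it was not called (0.54 over 8 arrays and 0.34 over 6 in acupoint against non-acupoint). The calls of pathway genes in acupoint against control over the 6 arrays stand beside 8.64% of all probe sets tested that passed there. Over all 8 arrays none of these pathway genes passed an adjusted p of 0.05 in any of the 6 comparisons.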

How the data were processed

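The authors deposited log2 levels per probe set, made with Affymetrix Expression Console and RMA per the submitters' processing notes. Versions and filters were not given in the sources used here. RMA sets all arrays to 1 distribution, which hides changes of total RNA, and it flattens differences between dim probe sets. Of 35557 probe sets, 21789 had 1 gene symbol in the platform annotation, 1621 several and 12147 none. The dimmest 40% of all probe sets by mean over the arrays, and the unnamed ones, were left out of the tests, and 15791 with 1 or several symbols remained. With limma 3.58.1 in R 4.3.3, group means were estimated by lmFit from all 8 arrays and tested with eBayes (4 residual and 2.53 prior degrees of freedom). P-values are two-sided and adjusted by Benjamini-Hochberg over all 15791, with a threshold of 0.05. With 2 mice a group, the smallest p of an exact permutation test would be 0.333. The procedure was tested on simulated data with independent noise on each array. That simulation cannot show how the procedure fares with a deviation shared by the 2 arrays that stood apart. Alternatives changed the normalization, the filter, the choice of probe set, the model and the arrays used.

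Named were the 7 genes, the other GABA-A subunit genes, per pathway list up to 3 genes of smallest p, and the 3 genes most correlated with each of the 7. Gad1, Abat, Gphn, Slc12a2 and Slc12a5 were named after their values were seen. Members and lists were chosen with earlier results of these data known. The sample titles do not say whether mouse numbers pair the mice across groups, and the main fit used no pairing. Deviations of same-numbered mice correlated at -0.282 to 0.822, and both arrays that stood apart were of mouse 1. This range does not decide whether the numbers carry a pairing. Promoter windows and gene order came from RefSeq (GRCm38.p6), and the genome build behind the array annotation was not stated.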

Additional observations from a re-analysis of the deposited data

How the results depend on the processing

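In acupoint against control, the log2 changes of all 7 genes kept their direction with each of the 4 control or acupoint mice left out and under both other normalizations. Most other alternatives cannot move that difference, only its error. With a mouse of the 2 groups compared left out, 21 of 168 gene changes turned direction. Under the 12 alternatives that leave out no single mouse, 16 changes newly passed the adjusted p and 18 turned. The main fit over all 8 arrays called none of these genes, so there was none to lose. In acupoint against control, array weights on all 8 gave calls of Gabra4, Gabra5, Gabrb2 and Gabrd. A term for the 2 arrays that stood apart gave calls of Gabra4 and Gabrd there.

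The median change over the 7 genes in MPTP against control, 0.108, was -0.122 over the 6 arrays, -0.0982 with a term for the 2 arrays that stood apart and -0.0461 with the mean over the probe sets of a gene. That mean moved the acupoint against MPTP median from 0.204 to 0.369. The 6 arrays moved the median from 0.0752 to 0.253 in non-acupoint against MPTP and from 0.161 to 0.0448 in acupoint against non-acupoint. With 1 mouse left out in turn, the medians ran from -0.122 to 0.108 in MPTP against control, 0.152 to 0.21 in acupoint against control, 0.118 to 0.24 in non-acupoint against control. In the other comparisons they ran from 0.167 to 0.275 in acupoint against MPTP, -0.065 to 0.156 in non-acupoint against MPTP, 0.0448 to 0.26 in acupoint against non-acupoint.

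Single genes turned direction under these alternatives. With the mean over its probe sets, Gabrb2 was -0.145 in MPTP against control, -0.184 in non-acupoint against control and -0.0382 in non-acupoint against MPTP. Over the 6 arrays Gabrb1 was -0.122 in MPTP against control and 0.0448 in acupoint against non-acupoint, and Gabra3 was -0.00855 in non-acupoint against control and 0.176 in acupoint against MPTP. Gabra5 was 0.180 there in acupoint against MPTP and 0.384 in non-acupoint against MPTP, and Gabra2 was -0.0422 in acupoint against non-acupoint. With the term for the 2 arrays, Gabrb1 was -0.0982 in MPTP against control and 0.0684 in acupoint against non-acupoint, Gabra3 was -0.0329 in non-acupoint against control and 0.151 in acupoint against MPTP, and Gabra5 was 0.0608 in acupoint against non-acupoint. In non-acupoint against MPTP, quantile normalization gave Gabrb2 -0.00526 and Gabrd -0.000579, and cyclic loess gave Gabrd -0.00843. The causes were not tested. Leaving out 1 mouse turned these. In MPTP against control, the change ran for Gabrb1 from -0.122 to 0.338, for Gabra3 from -0.261 to 0.169, for Gabrd from -0.344 to 0.869. In non-acupoint against control, the change ran for Gabra3 from -0.00855 to 0.324, for Gabrd from -0.353 to 0.898. In acupoint against MPTP, the change ran for Gabra3 from -0.254 to 0.176, for Gabra5 from -0.578 to 0.18, for Gabrb1 from -0.157 to 0.303. In non-acupoint against MPTP, the change ran for Gabra5 from -0.525 to 0.232, for Gabrb2 from -0.056 to 0.142, for Gabrd from -0.615 to 0.636, for Gabra3 from -0.0112 to 0.419, for Gabrb1 from -0.0189 to 0.44, for Gabra2 from -0.065 to 0.411, for Gabra4 from -0.0995 to 0.25. In acupoint against non-acupoint, the change ran for Gabra2 from -0.0422 to 0.434, for Gabrb1 from -0.32 to 0.0448, for Gabra5 from -0.205 to 0.1.

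A replicate block for the mouse number cannot move a group difference here, since each group holds each number once, and the MPTP against control median is 0.108 by construction. By its effect on the error alone, the block gave 4 genes an unadjusted p under 0.05 in acupoint against control, against 3 without it, and 2 against 1 in acupoint against MPTP and in acupoint against non-acupoint. It changed no adjusted call of the 7 genes. Unadjusted calls in MPTP against control ran from 0 to 6 of 7 over the alternatives.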
